A study of Danio rerio with 9 samples.

Results

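Embryos exposed to the ketone 1,9-benz-10-anthrone (BEZO) were compared directly with embryos exposed to the quinone benzanthracene-7,12-dione (BaAQ). The comparison used the 3 BEZO and 3 BaAQ libraries, which are 6 of the 9 libraries of the series, and every gene with enough reads, 18860 of the 32434 in the count table. Both groups were whole zebrafish embryos of the wild-type 5D strain, kept from 6 to 48 hours post fertilization (hpf) in the dark on a rocker with 10 µM of their compound in 1% DMSO. The 3 Control vials received 1% DMSO alone, so the solvent is common to all groups. A sample was 1 vial of 20 embryos in 2 mL, pooled into 1 library of polyadenylated RNA, and the labels call the vials of a group independent biological replicates. The eggs came from group spawns of different days, and the labels do not say which vial belongs to which day. The exposure temperature is given as 37 °C, which could not be checked from the counts.

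Oxygenated polycyclic aromatic hydrocarbons are combustion products and oxidation products of fused aromatic rings. BEZO is a ketone and BaAQ a quinone, which carries a pair of carbonyl groups on the same ring. The ring frameworks also differ, so the carbonyl groups are not the only change in structure. Many planar aromatic compounds bind the aryl hydrocarbon receptor, a transcription factor that switches on cytochrome P450 genes of the CYP1 family, conjugating enzymes and its own repressors. Quinones can also be reduced and reoxidized in cells, and the factor NRF2, held back by KEAP1, controls the antioxidant genes that answer oxidants and electrophiles. Only 1 pair of compounds, 1 dose and 1 time were available, so adjustment ran over genes and not over pairs.

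The 6 compound libraries held 8106613 to 11813335 counted reads, and the Control libraries 9620666 to 14435626. Levels are given in CPM, the read count of a gene scaled to the library total, where 3 reads correspond to 0.208 to 0.370 CPM depending on the library. On the first principal component of log CPM, which held 27.4% of the variance, the BEZO libraries lay between -5.57 and 0.882, the BaAQ libraries between 16.6 and 31.1 and the Control libraries between -22.6 and -21.5. The BEZO libraries stood apart from both other groups on the second component, which held 19.3%, at -24.2 to -19.8 against 8.87 to 11.6 in BaAQ and 10.4 to 15.6 in Control. BaAQ 3 lay farthest out on the first component.

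Of the 18860 genes, 936 (4.96%) differed between BEZO and BaAQ at an adjusted p under 0.05. BEZO embryos had the higher level in 438 genes (2.32%) and the lower level in 498 (2.64%). The lower genes included more large differences: 124 were lower by more than 2-fold and 22 by more than 4-fold, against 38 and 5 among the higher genes. The BEZO and BaAQ libraries did not overlap in 914 of the 936 genes. These genes were called from the same libraries, so rare overlap follows from the selection and adds no support to the calls. Over all tested genes 22.3% did not overlap, 9.8% with BEZO above BaAQ and 12.4% with BEZO below. For 12134 genes (64.3%) the 95% interval of the difference lay within 1.5-fold in either direction. These are intervals of single genes and are not adjusted. Of the 12134 genes, 284 were among the 936 called. The interval lay wholly beyond 1.5-fold for 159 genes, and for 6567 it did neither. Over all tested genes the median log2 fold change, BEZO over BaAQ, was 0.00056. The counts fell to 248 higher and 288 lower genes without BEZO 2 and to 277 and 331 without BEZO 3, and the higher genes to 289 without BaAQ 3.

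**Figure D1:**
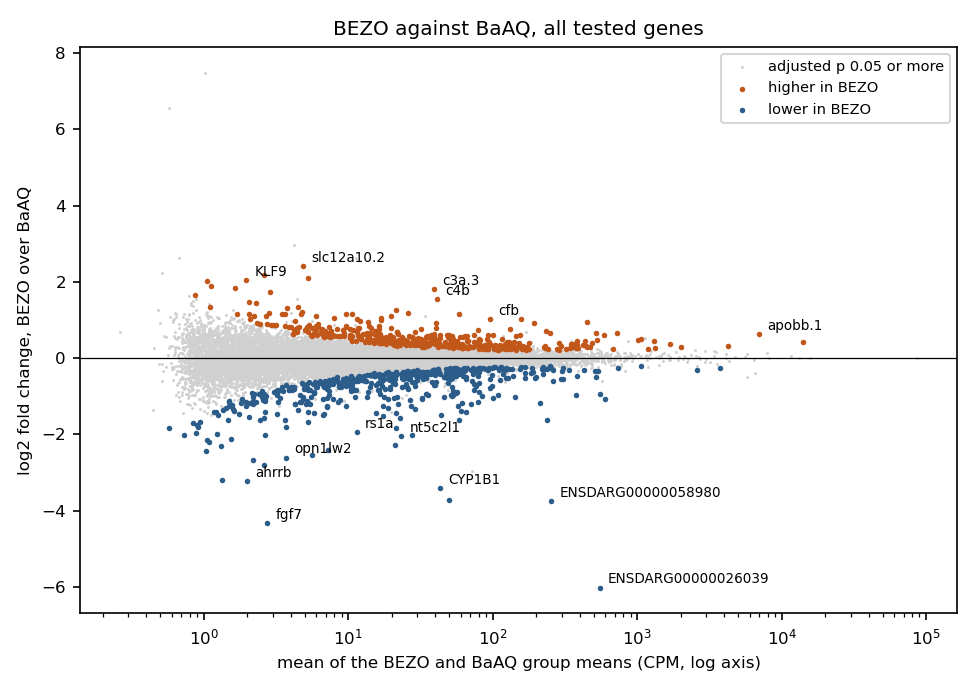
Log2 fold change of BEZO over BaAQ (vertical axis) against the mean of the group means in CPM (horizontal log axis) for the 18860 tested genes, with the 438 higher and 498 lower genes coloured. The lowest point is ENSDARG00000026039 at -6.02, while the highest gene past the threshold, slc12a10.2, reaches 2.43; the 2 grey points above 6 are genes without a BaAQ read that did not pass.

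Of 17 tested members of the aryl hydrocarbon receptor list, 11 were lower in BEZO than in BaAQ and 6 did not pass. With a library left out, 9 to 11 were lower. The list median log2 fold change was -0.50, against 0.00056 over all genes. Counts of this and the later lists stand beside 2.32% higher and 2.64% lower over all tested genes. The lists were chosen with earlier results of these data known, so their shares and medians describe the members and test nothing. CYP1B1, a P450 enzyme that oxidizes aromatic hydrocarbons and steroids, had 6.43, 8.51 and 7.15 CPM in the BEZO libraries, against 73.7, 83.3 and 80.7 CPM in BaAQ and 5.92, 4.78 and 7.52 CPM in Control. The BEZO libraries lay entirely below the BaAQ libraries and overlapped with Control. The log2 fold change was -3.41 ± 0.13 (standard error, as for all values after ± below), a 10.6-fold lower level, with an adjusted p of 8.00e-17. Set against the same 3 Control libraries, CYP1B1 was 0.24 higher on the log2 scale in BEZO, which did not pass, and 3.65 higher in BaAQ, which did. The family members cyp1a, cyp1c1 and cyp1c2 were not matched to an identifier by symbol, and ahr1a had too few reads to be tested.

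The repressor and receptor genes named here were also lower in BEZO than in BaAQ. The repressor gene ahrrb had 0.339, 0.366 and 0.414 CPM in BEZO, which is 4 reads in each library, against 3.44, 3.58 and 3.76 CPM in BaAQ and 0.208, 0.208 and 0.145 CPM in Control. The groups did not overlap, and the log2 fold change was -3.22 ± 0.41 (adjusted p = 4.41e-07). Only the BaAQ libraries had enough reads for ahrrb to be tested, so a lower level in BaAQ could not have been called. The lack of overlap therefore adds no support to the call. The gene tiparp, which encodes an ADP-ribosyltransferase that dampens the receptor, was lower by a log2 fold change of -0.63 ± 0.10 (adjusted p = 2.00e-04). The receptor gene ahr2 had 147, 132 and 152 CPM in BEZO, 187, 188 and 196 CPM in BaAQ and 117, 116 and 117 CPM in Control, and its log2 fold change was -0.39 ± 0.06 (adjusted p = 1.83e-04). Its BEZO libraries thus lay between those of the other groups. The second receptor gene, ahr1b, had 19.2, 15.7 and 17.5 CPM in BEZO against 28.6, 32.7 and 28.7 CPM in BaAQ and 32.9, 30.1 and 34.6 CPM in Control, so that here BEZO stood below both. Its log2 fold change between the compounds was -0.76 ± 0.10 (adjusted p = 1.80e-05).

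Forkhead genes near this pathway differed among themselves. FOXQ1, a forkhead transcription factor, had 1.02, 1.65 and 2.80 CPM in BEZO, against 6.08, 5.30 and 5.01 CPM in BaAQ and 2.18, 1.59 and 1.95 CPM in Control. The BEZO libraries overlapped with Control and not with BaAQ, and the log2 fold change was -1.61 ± 0.27 (adjusted p = 2.27e-04). The related foxq1b had 3.05, 2.29 and 2.07 CPM in BEZO, 3.79, 4.56 and 5.42 CPM in BaAQ and 2.49, 1.32 and 1.81 CPM in Control. Its log2 fold change of -0.85 ± 0.25 had an adjusted p of 0.0389, which became 0.128 without BEZO 2, 0.148 without BEZO 3, 0.0879 without BaAQ 2 and 0.166 without BaAQ 3. It was also lost in DESeq2 (0.0982) and after thinning to the smallest library total (0.0883). For foxf2a the estimate was -0.00 with a 95% interval of -0.28 to 0.28, from 13.2, 11.2 and 14.5 CPM in BEZO and 14.1, 13.9 and 11.2 CPM in BaAQ.

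The strongest evidence for any lower gene came from 2 genes for which the gene tables give no symbol. ENSDARG00000026039 had 17.6, 16.4 and 15.4 CPM in BEZO, against 1106, 1113 and 1029 CPM in BaAQ and 4.47, 3.53 and 5.57 CPM in Control. BEZO was higher than Control and far below BaAQ in every library, and the log2 fold change between the compounds was -6.02 ± 0.09 (adjusted p = 1.44e-25). ENSDARG00000058980 had 38.8, 30.8 and 35.0 CPM in BEZO, 447, 483 and 484 CPM in BaAQ and 15.1, 14.8 and 16.1 CPM in Control, with a log2 fold change of -3.74 ± 0.07 (adjusted p = 1.39e-22). Both genes passed against Control in both compounds, at 1.83 and 1.15 on the log2 scale in BEZO and 7.85 and 4.89 in BaAQ.

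Another large difference lay in fgf7, a secreted fibroblast growth factor that signals to epithelia. It had 2, 2 and 4 reads in the BEZO libraries (0.169, 0.183 and 0.414 CPM), against 67, 40 and 46 reads in BaAQ (5.90, 4.93 and 4.80 CPM) and 2, 6 and 3 reads in Control. BEZO and Control overlapped near the limit of 3 reads, and BaAQ stood above both. Only the BaAQ libraries had enough reads for fgf7 to be tested. At these BEZO levels a lower level in BaAQ could not have been called, so the filter fixed the direction. The log2 fold change was -4.33, with a 95% interval of -5.38 to -3.28 and an adjusted p of 9.75e-09. Of the 33 tested members of the fibroblast growth factor list, fgf7 and fgfbp3 were lower, with a list median of -0.04. This was a called share of 6.06%, against 4.96% over all tested genes. The call of fgfbp3 did not survive leaving out BEZO 1, 2 or 3, BaAQ 1 or 2 or Control 3 (adjusted p 0.0558 to 0.169), and it was also lost in DESeq2 (0.0751) and with the 6 compound libraries only (0.0589). The gene fgf7 stayed past the threshold whichever library was left out, which adds no support to a direction fixed by the filter. The neural cell adhesion gene ncam3 had 2.03, 1.46 and 1.35 CPM in BEZO, 9.69, 9.87 and 9.29 CPM in BaAQ and 2.70, 4.02 and 3.04 CPM in Control, so that the compounds lay on opposite sides of Control. Its log2 fold change was -2.53 ± 0.23 (adjusted p = 9.75e-09).

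Of 21 tested genes for conjugation and transport, 6 were lower in BEZO and 15 did not pass, with a median of -0.06. The count of 6 was 4 to 6 with a library left out. The sulfotransferase gene sult6b1 had 49.5, 53.8 and 43.0 CPM in BEZO, 94.4, 110.2 and 122 CPM in BaAQ and 28.4, 25.5 and 23.9 CPM in Control. The 3 groups did not overlap, and the log2 fold change between the compounds was -1.14 ± 0.10 (adjusted p = 1.47e-07). The glutathione transferase gene gsto2 showed the same order of groups, at 26.0, 20.3 and 25.1 CPM in BEZO, 41.5, 51.3 and 48.3 CPM in BaAQ and 13.1, 17.2 and 16.6 CPM in Control, with a log2 fold change of -0.96 ± 0.11 (adjusted p = 1.80e-06). ABCC4, an efflux transporter, was lower by -0.51 ± 0.11 on the log2 scale (adjusted p = 0.00477), and the microsomal glutathione transferase MGST1 (ENSDARG00000022165) by -0.73 ± 0.16 (adjusted p = 0.00652). The genes sult6b1, gsto2 and UGT1A1 stand on both this list and the receptor list. The receptor list also holds NQO1, which is described below with the antioxidant genes, so the lists are not separate sets. Among 11 tested genes of other P450 families and their reductase, edgeR called 0, with 2 higher at an unadjusted p under 0.05, and DESeq2 also called 0, while edgeR called 1 higher without BaAQ 2. For 7 of these 11 the 95% interval lay within 1.5-fold, near the share of 64.3% over all tested genes.

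Most antioxidant genes that differed were also lower in BEZO. Of 29 tested NRF2 list members, 8 were lower, 1 was higher and 20 did not pass, with a median of -0.30. The 8 lower genes became 6 to 9 with a library left out. SQSTM1, the autophagy receptor p62 that also binds KEAP1, had 34.5, 35.5 and 34.0 CPM in BEZO, 69.7, 62.8 and 73.7 CPM in BaAQ and 19.1, 17.4 and 20.5 CPM in Control. BEZO lay between Control and BaAQ without overlap, and the log2 fold change between the compounds was -0.97 ± 0.08 (adjusted p = 1.37e-08). The peroxiredoxin gene prdx1 (ENSDARG00000058734) had 70.9, 74.1 and 65.4 CPM in BEZO, 125, 107 and 132 CPM in BaAQ and 34.6, 25.0 and 27.5 CPM in Control, and its log2 fold change was -0.77 ± 0.09 (adjusted p = 2.41e-05). Glutathione reductase, GSR, had 40.0, 37.0 and 37.1 CPM in BEZO against 49.2, 52.8 and 59.8 CPM in BaAQ and 13.9, 14.0 and 14.6 CPM in Control. Both compounds were thus well above Control, and the difference between them was -0.48 ± 0.09 on the log2 scale (adjusted p = 6.64e-04). The entry KEAP1, matched from the symbol keap1b, differed by -0.40 ± 0.09 (adjusted p = 0.00468). The related keap1a differed by -0.33 ± 0.11 and did not pass (adjusted p = 0.0833).

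Within the antioxidant group the members did not all move alike. NQO1, the quinone reductase, had 45.3, 37.4 and 45.5 CPM in BEZO, 64.8, 61.7 and 56.2 CPM in BaAQ and 43.7, 50.7 and 41.4 CPM in Control, so that BEZO overlapped with Control and lay below BaAQ at a log2 fold change of -0.50 ± 0.09 (adjusted p = 0.00132). The pentose phosphate enzymes PGD and TKT, which feed NADPH supply and sugar interconversion, were lower by -0.47 ± 0.08 and -0.65 ± 0.09 on the log2 scale (adjusted p = 1.75e-04 and 2.98e-05). They stood differently against Control: PGD stood at 0.13 in BEZO on the log2 scale, without passing, and at 0.60 in BaAQ, while TKT stood at -0.64 in BEZO and at 0.01 in BaAQ, without passing there. HMOX1, heme oxygenase, had 27.8, 35.5 and 35.8 CPM in BEZO, 25.3, 24.1 and 20.2 CPM in BaAQ and 15.3, 22.5 and 20.5 CPM in Control, higher in BEZO by 0.52 ± 0.14 (adjusted p = 0.0297). That call was lost without BEZO 2, BEZO 3, BaAQ 2 or BaAQ 3, with adjusted p of 0.143, 0.113, 0.0750 and 0.119. GCLC, the catalytic subunit of the first enzyme of glutathione synthesis, differed by -0.11 with a 95% interval of -0.30 to 0.07. PRDX1 (ENSDARG00000025350) differed by 0.03, with an interval of -0.12 to 0.19.

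**Figure D2:**
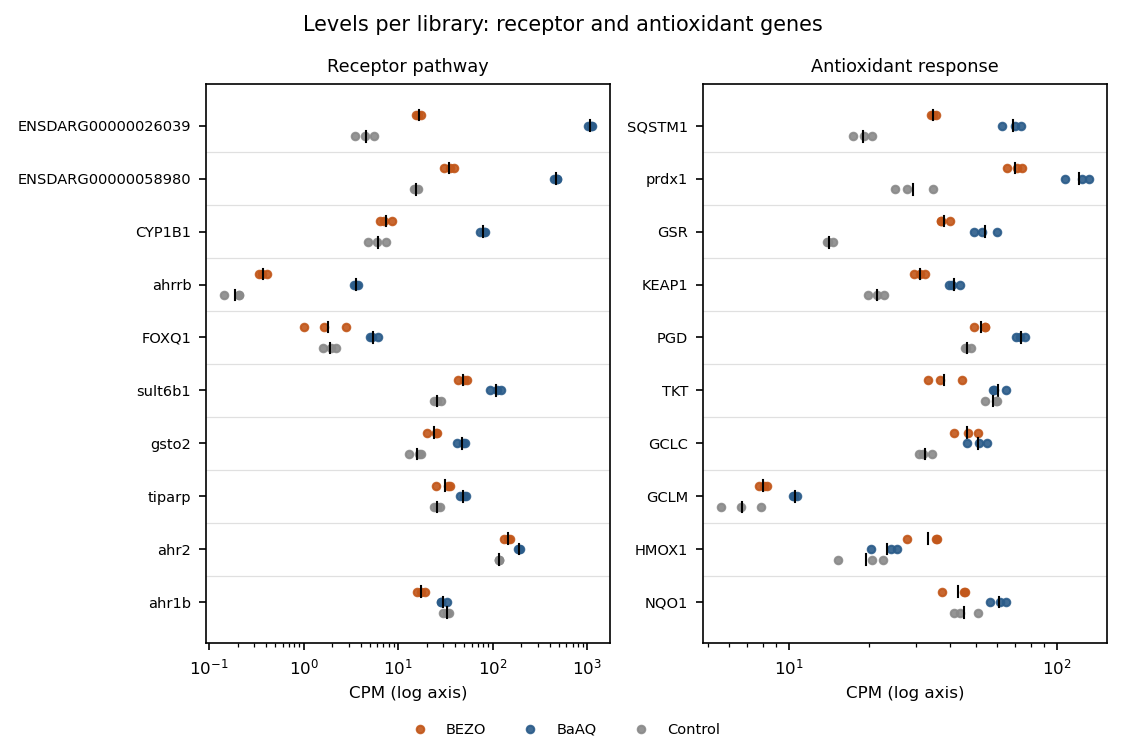
CPM per library (log axes) for receptor pathway and antioxidant genes, with a point per library, a bar at the group mean, and BEZO above BaAQ above Control within each gene. The genes ENSDARG00000026039 and ENSDARG00000058980, which have no symbol, are drawn in the receptor panel but are not on the receptor list. CYP1B1 lies at 6.43 to 8.51 CPM in BEZO, next to Control, while SQSTM1, prdx1 and GSR in BEZO stand above Control and below BaAQ, and HMOX1 is highest in BEZO.

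Of 36 tested lens genes, 20 were lower in BEZO than in BaAQ and 16 did not pass. The 20 became 15 to 23 with a library left out. Estimates of all 36 were below 0, with a median of -0.47 and a range of -2.39 to -0.08. Summed over the list, the level was 3267, 3422 and 3662 CPM in BEZO, against 4747, 5203 and 4219 CPM in BaAQ and 5084, 4538 and 4905 CPM in Control. BEZO lay below both other groups, which overlapped. In whole embryos a smaller lens and less RNA per lens cell cannot be told apart, and the same holds for every tissue described here. The crygm2d genes encode gamma M crystallins, structural proteins of the fish lens. They are near copies of each other, so reads may have been split among them, and their single values are uncertain. The gene crygm2d11 had 1.86, 2.20 and 2.80 CPM in BEZO, 12.2, 13.8 and 10.3 CPM in BaAQ and 26.8, 19.3 and 19.5 CPM in Control, with a log2 fold change of -2.39 ± 0.22 (adjusted p = 1.32e-08). For crygm2d16 the values were 10.2, 11.4 and 12.6 CPM in BEZO, 34.7, 40.3 and 28.4 CPM in BaAQ and 50.2, 46.3 and 40.9 CPM in Control, at -1.58 ± 0.13 (adjusted p = 2.39e-08). Both genes fell below Control in both compounds and fell furthest in BEZO. The gene crygm2d13, by contrast, had 96.2, 79.6 and 107 CPM in BEZO against 203, 208 and 164 CPM in BaAQ, where it overlapped with the 186, 163 and 169 CPM of Control. Its difference between the compounds was -1.01 ± 0.10 on the log2 scale (adjusted p = 1.98e-05). Lens members outside the gamma M family also passed, among them the alpha crystallin CRYAA at -0.63 and the beta crystallin CRYBB1 at -0.55.

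Of 26 tested photoreceptor genes, 9 were lower in BEZO and 17 did not pass, with a median of -0.52. With a library left out, 6 to 9 were lower. The cone opsin gene opn1lw2 had 0.593, 0.824 and 1.76 CPM in BEZO, against 6.70, 5.67 and 6.57 CPM in BaAQ and 12.2, 9.70 and 9.11 CPM in Control. The 3 groups did not overlap, and the log2 fold change between the compounds was -2.60 ± 0.31 (adjusted p = 3.41e-07). The gene rs1a encodes retinoschisin, an adhesion protein secreted by photoreceptors. It had 4.74, 3.11 and 6.42 CPM in BEZO, 18.2, 20.7 and 15.6 CPM in BaAQ and 24.0, 19.0 and 19.2 CPM in Control, with a log2 fold change of -1.93 ± 0.19 (adjusted p = 3.53e-07). BaAQ overlapped with Control for this gene and BEZO lay below both. The photoreceptor gene tulp1a was lower by -1.44 ± 0.14 and the cone arrestin ARR3 by -1.24 ± 0.15 on the log2 scale (adjusted p = 1.20e-07 and 1.76e-06). Of 24 retinal regulators and retinal neuron genes, 6 were lower and 1 higher, with a median of -0.23, and the 6 became 3 without BaAQ 2. The 1 higher gene was lost without BEZO 1, BEZO 3 or BaAQ 2. The retinal homeobox gene rx2 had 10.2, 10.2 and 10.1 CPM in BEZO, 16.6, 16.2 and 13.4 CPM in BaAQ and 21.2, 20.0 and 19.8 CPM in Control, at -0.58 ± 0.12 (adjusted p = 0.00433). VSX1, a bipolar cell regulator, differed by -0.41 ± 0.07 (adjusted p = 4.84e-04).

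Of 29 tested red cell genes, 9 were lower in BEZO and 20 did not pass, with a median of -0.20, and the summed level was 1186, 1179 and 1053 CPM in BEZO, 1877, 1911 and 1487 CPM in BaAQ and 1547, 1513 and 1566 CPM in Control. The 9 lower genes became 6 to 9 with a library left out. The gene alas2 encodes the first enzyme of heme synthesis in red cells. It had 35.0, 33.6 and 31.2 CPM in BEZO, 96.1, 101 and 66.8 CPM in BaAQ and 55.8, 59.9 and 51.9 CPM in Control. The compounds lay on opposite sides of Control without overlap, and the log2 fold change between them was -1.38 ± 0.14 (adjusted p = 7.69e-05). The band 4.1 membrane skeleton gene epb41b showed the same order, at 13.7, 14.8 and 11.5 CPM in BEZO, 30.0, 30.7 and 22.8 CPM in BaAQ and 20.1, 20.9 and 20.0 CPM in Control (log2 fold change -1.04 ± 0.12, adjusted p = 2.78e-06). The carbonic anhydrase gene cahz was lower by -0.73 ± 0.09, and the anion exchanger SLC4A1 (ENSDARG00000012881), band 3 of the red cell membrane, by -0.84 ± 0.11 on the log2 scale (adjusted p = 3.75e-06 and 1.32e-04). The nucleotidase gene nt5c2l1 had 8.80, 9.43 and 8.80 CPM in BEZO, 42.02, 45.4 and 25.5 CPM in BaAQ and 11.8, 10.3 and 11.6 CPM in Control, with a log2 fold change of -2.04 ± 0.19 (adjusted p = 1.05e-05). Within BaAQ, library 3 had the lowest level of alas2, epb41b and nt5c2l1, still above every BEZO library. Of 13 iron genes, ferritin fth1a was lower at -0.49 ± 0.08 (adjusted p = 4.55e-04) and 2 genes were higher, with a list median of -0.06. Among the 2 higher genes was another ferritin gene, fthl28, at 0.54 ± 0.14 (adjusted p = 0.0259). The iron list had 1 higher gene without BEZO 2, BEZO 3, BaAQ 2 or BaAQ 3 and 3 lower genes without BaAQ 1.

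**Figure D3:**
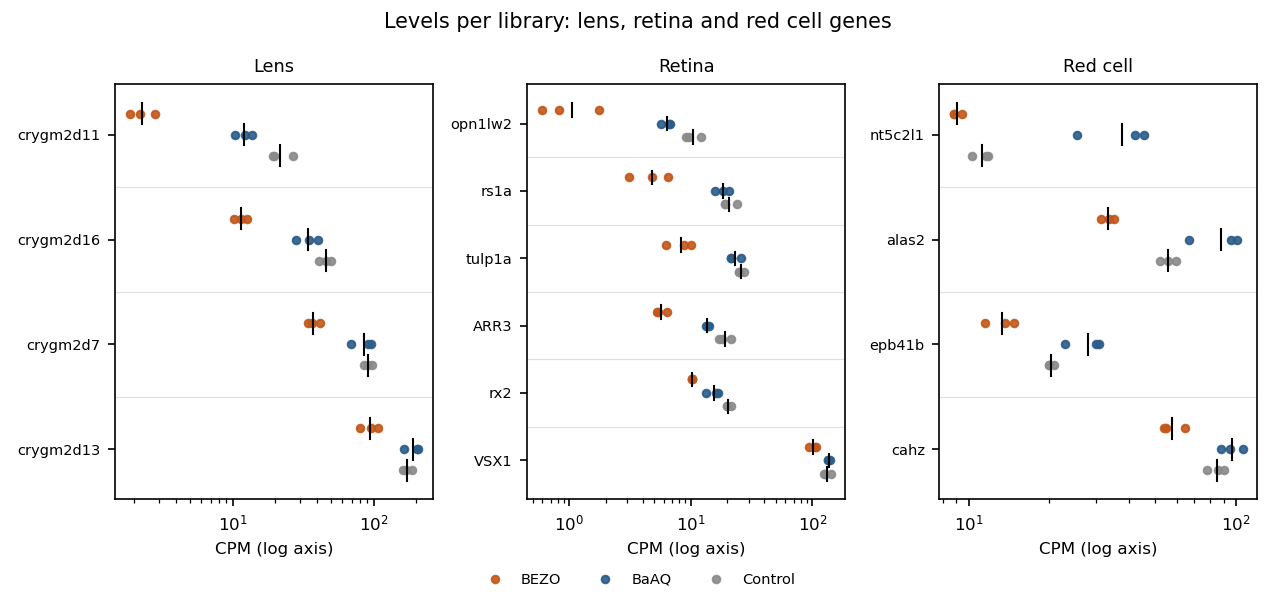
CPM per library (log axes) for lens, retina and red cell genes, drawn as points with a bar at the group mean, BEZO above BaAQ above Control. BEZO has the lowest mean for each gene shown, close to Control for nt5c2l1, and alas2 and epb41b in BaAQ lie above Control.

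Of 31 tested genes of secreted liver and yolk proteins, 10 were higher in BEZO than in BaAQ, 1 was lower and 20 did not pass, with a median of 0.28. The count of 10 ran from 8 to 12 with a library left out. The 1 lower gene was lost without BEZO 1, BEZO 3 or BaAQ 1. The complement genes c3a.2, c3a.3 and c4b are not among the 31 and are named for their place among the 15 largest differences with BEZO higher. The first pair are copies of complement component 3 and may share reads. The gene c3a.3 had 61.3, 59.6 and 61.1 CPM in BEZO, against 19.6, 13.9 and 18.2 CPM in BaAQ and 58.6, 43.0 and 62.8 CPM in Control, with a log2 fold change of 1.82 ± 0.13 (adjusted p = 6.13e-08). For c3a.2 the levels were 4.49, 2.84 and 5.49 CPM in BEZO, 0.881, 0.863 and 1.04 CPM in BaAQ and 5.72, 4.09 and 3.90 CPM in Control, at 2.19 ± 0.34 (adjusted p = 3.44e-05). In both genes BEZO overlapped with Control and BaAQ lay below both. Complement factor B, cfb, had 120.1, 125 and 138 CPM in BEZO, 59.0, 67.1 and 63.3 CPM in BaAQ and 97.4, 98.0 and 108 CPM in Control, so that the compounds lay on opposite sides of Control. Its log2 fold change was 1.03 ± 0.07 (adjusted p = 2.62e-10), and that of c4b, complement component 4, was 1.55 ± 0.12 (adjusted p = 4.91e-08). Ceruloplasmin, CP, the copper-carrying ferroxidase of plasma, had 244, 225 and 289 CPM in BEZO, 146, 135 and 124 CPM in BaAQ and 174, 166 and 178 CPM in Control, at 0.92 ± 0.08 (adjusted p = 1.32e-08). The apolipoprotein B gene apobb.1, which packages yolk lipid, was higher by 0.63 ± 0.07 (adjusted p = 1.99e-06).

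The called share was 12.5% in the myeloid list and 26.3% in the inflammation and interferon list, against 4.96% over all tested genes. Of 24 myeloid genes, 3 were higher in BEZO and 21 did not pass, with a median of 0.39 and summed levels of 191, 179 and 181 CPM in BEZO, 152, 154 and 139.8 CPM in BaAQ and 158, 145 and 149.6 CPM in Control. The lysozyme gene lyz had 17.9, 17.8 and 16.5 CPM in BEZO, 11.9, 11.2 and 10.0 CPM in BaAQ and 17.2, 12.1 and 17.1 CPM in Control, at 0.67 ± 0.13 (adjusted p = 0.00249). Its call held whichever library was left out, and it was one of 1 to 4 called members across those settings, the fewest without BEZO 1. Of 19 inflammation and interferon genes, 4 were higher and 1 lower, with a median of 0.06, and the 1 lower was lost without BEZO 2 or BaAQ 3. The chemokine gene CXCL12 had 70.9, 68.7 and 72.2 CPM in BEZO, 50.0, 48.4 and 47.2 CPM in BaAQ and 69.0, 58.1 and 70.9 CPM in Control, and was higher by 0.56 ± 0.08 (adjusted p = 2.77e-05).

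Ionocytes are the ion-transporting cells of the embryonic skin. Of 39 tested ionocyte genes, 7 were higher in BEZO, 1 was lower and 31 did not pass, with a median of 0.18, and the count of 7 was the same whichever library was left out. The cotransporter gene slc12a10.2, of the sodium chloride cotransporter family, had 9.73, 8.15 and 6.42 CPM in BEZO, 0.969, 2.34 and 1.46 CPM in BaAQ and 5.51, 7.62 and 5.64 CPM in Control. BEZO overlapped with Control and BaAQ lay below both, with a log2 fold change between the compounds of 2.43 ± 0.29 (adjusted p = 9.02e-07). The chloride channel gene clcn2c had 4.49, 4.30 and 4.56 CPM in BEZO, 1.15, 1.11 and 1.77 CPM in BaAQ and 3.22, 2.56 and 3.47 CPM in Control, at 1.73 ± 0.27 (adjusted p = 5.69e-05). The ammonia channel gene RHBG had 53.5, 50.1 and 54.5 CPM in BEZO, 29.5, 31.5 and 24.0 CPM in BaAQ and 67.7, 59.1 and 71.3 CPM in Control, and was higher in BEZO than in BaAQ by 0.91 ± 0.09 (adjusted p = 2.62e-07). RHBG was below Control in both compounds, at -0.36 in BEZO and -1.27 in BaAQ on the log2 scale, both past the threshold. The single lower gene of the list was SLC4A1 (ENSDARG00000012881), which is also on the red cell list.

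Glucocorticoid response genes gave 4 higher members of 17 tested, with a median of 0.10, and the 4 became 2 without BEZO 3 or without BaAQ 1. KLF9, a transcription factor induced by glucocorticoids, had 2.20, 3.94 and 3.31 CPM in BEZO, 0.440, 0.863 and 1.04 CPM in BaAQ and 4.89, 7.55 and 7.37 CPM in Control. The 3 groups did not overlap, and the log2 fold change between the compounds was 2.04 ± 0.39 (adjusted p = 5.47e-04). FKBP5, a chaperone partner of the glucocorticoid receptor and a target of it, had 7.79, 29.9 and 20.3 CPM in BEZO, 4.14, 4.19 and 1.04 CPM in BaAQ and 41.3, 56.8 and 59.2 CPM in Control. Its groups did not overlap either, but the BEZO libraries spread widely and the log2 fold change of 2.63 ± 0.78 did not pass (adjusted p = 0.111). It passed without BEZO 1 (adjusted p = 0.0267), in DESeq2 (0.00212), in the likelihood ratio test (0.00292) and in a fit without robust variances (3.75e-04). In the other alternatives its adjusted p was 0.110 or more. HSD11B2, the enzyme that inactivates cortisol, had 21.6, 22.1 and 20.0 CPM in BEZO, 14.6, 16.0 and 14.5 CPM in BaAQ and 26.4, 26.8 and 23.6 CPM in Control, at 0.52 ± 0.11 (adjusted p = 0.00419). Of 8 tested ponzr genes, a fish family of small cysteine-rich membrane proteins, ponzr4 was higher and PLAC8L1 lower, with a list median of -0.10. The gene ponzr4 had 4.66, 10.8 and 10.6 CPM in BEZO, 2.995, 1.11 and 1.67 CPM in BaAQ and 27.2, 32.7 and 36.9 CPM in Control. Its log2 fold change of 2.09 ± 0.51 had an adjusted p of 0.0462, which ran from 0.0555 to 0.178 without BEZO 2, BEZO 3, BaAQ 2, BaAQ 3, Control 2 or Control 3 and was 0.0557 after thinning to the smallest library total. The call of PLAC8L1 (-1.47 ± 0.33, adjusted p = 0.00443) was lost after thinning (0.104).

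Skeletal, pigment and skin genes that differed were mostly higher in BEZO. Of 30 collagen genes 7 were higher, with a median of 0.14, but the count was 2 without BEZO 1 or BEZO 3, 4 without BaAQ 2 and 3 without BaAQ 3. COL10A1, a collagen of hypertrophic cartilage and early bone, had 81.3, 67.0 and 91.9 CPM in BEZO, 38.8, 40.2 and 29.5 CPM in BaAQ and 81.2, 71.3 and 72.3 CPM in Control. BEZO overlapped with Control, BaAQ lay below both, and the log2 fold change between the compounds was 1.16 ± 0.12 (adjusted p = 1.28e-05). Of 30 cartilage and bone genes 4 were higher, with a median of 0.06. SOX9 (ENSDARG00000043923), a regulator of cartilage, had 59.3, 57.0 and 58.8 CPM in BEZO, 40.8, 40.1 and 39.9 CPM in BaAQ and 44.4, 50.8 and 47.0 CPM in Control, so that the compounds lay on opposite sides of Control at a difference of 0.55 ± 0.08 (adjusted p = 4.30e-05). The other SOX9 entry (ENSDARG00000003293) was higher by 0.32 ± 0.08 (adjusted p = 0.0145), but its BEZO and BaAQ libraries overlapped. Its call was lost without BEZO 1, BEZO 3 or BaAQ 3. The cartilage matrix genes hapln1a and acana were higher by 0.31 ± 0.06 and 0.43 ± 0.09 (adjusted p = 0.00170 and 0.00477).

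Of 29 pigment genes, 5 were higher and 1 lower, with a median of 0.14, and the 1 lower was lost without BEZO 2, BEZO 3, BaAQ 1 or BaAQ 2. TYRP1 (ENSDARG00000029204), a melanin enzyme, had 50.8, 49.8 and 54.4 CPM in BEZO, 31.6, 32.1 and 26.2 CPM in BaAQ and 46.4, 49.5 and 52.6 CPM in Control, at 0.80 ± 0.09 (adjusted p = 8.81e-07). OCA2, a melanosome membrane protein, had 23.5, 19.7 and 24.0 CPM in BEZO, 12.2, 10.1 and 11.6 CPM in BaAQ and 20.2, 19.3 and 22.7 CPM in Control, at 1.00 ± 0.12 (adjusted p = 2.54e-06). For both genes BEZO overlapped with Control and BaAQ lay below. The purine synthesis enzyme PAICS, which serves reflective and yellow pigment cells as well as growth, had 532, 582 and 539 CPM in BEZO, 459, 398 and 409 CPM in BaAQ and 318, 279.7 and 315 CPM in Control. Here both compounds were above Control, and BEZO was higher than BaAQ by 0.40 ± 0.07 (adjusted p = 4.05e-04). Of 30 epidermal genes, 6 were higher and 1 lower, with a median of 0.03, and 2 were lower without BEZO 1, BaAQ 1 or BaAQ 3. The keratin gene krt91 was higher by 0.50 ± 0.08 and krt4 by 0.43 ± 0.07 (adjusted p = 1.27e-04 and 1.82e-04), while krt1-19d was lower by -1.25 ± 0.13 (adjusted p = 4.41e-07). Keratin genes have close copies, so their single values carry the same uncertainty as the crystallins.

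**Figure D4:**
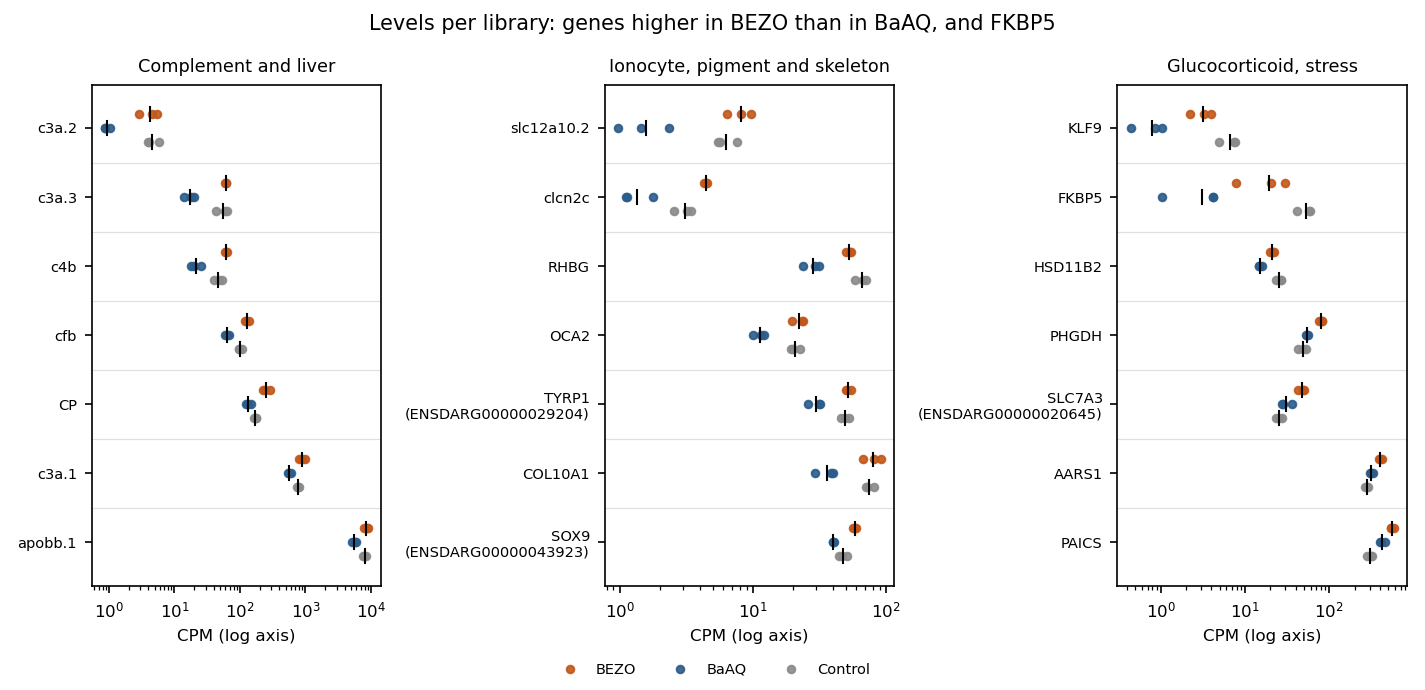
CPM per library (log axes) for genes higher in BEZO than in BaAQ, and for FKBP5, which did not pass, drawn as points with a bar at the group mean, BEZO above BaAQ above Control. In the complement, ionocyte and pigment genes BaAQ is the lowest group, whereas PHGDH, SLC7A3, AARS1 and PAICS are highest in BEZO with Control lowest.

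Of 32 tested genes of the integrated stress response, which adjusts amino acid supply and protein synthesis, 10 were higher in BEZO, 1 was lower and 21 did not pass, with a median of 0.20. The 10 became 5 without BEZO 2, and the 1 lower became 2 without BaAQ 2. PHGDH, the first enzyme of serine synthesis, had 81.5, 81.4 and 76.0 CPM in BEZO, 52.2, 54.3 and 55.5 CPM in BaAQ and 49.0, 42.9 and 53.5 CPM in Control. BaAQ overlapped with Control and BEZO lay above both, with a log2 fold change between the compounds of 0.58 ± 0.08 (adjusted p = 1.86e-05). The cationic amino acid transporter SLC7A3 (ENSDARG00000020645) had 42.3, 50.7 and 49.0 CPM in BEZO, 27.4, 28.5 and 36.5 CPM in BaAQ and 25.2, 23.3 and 27.3 CPM in Control, at 0.64 ± 0.10 (adjusted p = 2.62e-04). The alanyl-tRNA synthetase AARS1 was higher by 0.37 ± 0.06 (adjusted p = 2.85e-04). PSPH, the last enzyme of serine synthesis, went the other way, at 16.3, 16.8 and 14.3 CPM in BEZO, 25.8, 26.0 and 23.7 CPM in BaAQ and 19.1, 17.8 and 15.8 CPM in Control (log2 fold change -0.65 ± 0.11, adjusted p = 4.15e-04). Thus the first and last enzymes of the same pathway differed in opposite directions.

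Protein folding genes gave counts of calls that changed with the library left out. Of 36 heat shock genes 7 were higher in BEZO, with a median of 0.10, and the count was 2 without BEZO 2 or BEZO 3, 4 without BaAQ 1 and 3 without BaAQ 3. Of 27 endoplasmic reticulum chaperones 3 were higher, with a median of 0.15, and the count was 1 without BEZO 2 or BaAQ 3 and 5 without BEZO 1. HSP90B1, the endoplasmic reticulum member of the HSP90 family, had 408, 483 and 443 CPM in BEZO, 347, 349 and 283 CPM in BaAQ and 544, 606 and 541 CPM in Control, at 0.46 ± 0.09 between the compounds (adjusted p = 0.00241). Both compounds lay below Control for this gene. The proteasome list had 1 lower gene of 39, with 0 to 2 when a compound library was left out. Its called share was 2.56%, against 4.96% over all tested genes, and 36 of the 39 intervals lay within 1.5-fold.

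In the ribosomal protein, mitochondrial genome and neuronal lists most 95% intervals lay within 1.5-fold, against 64.3% of all tested genes. Intervals narrow as reads increase, and no list was matched to other genes of like level. Whether a share above 64.3%, here or in the proteasome list, is particular to the list was therefore not tested. In the skeletal muscle and heart lists 37 of 49 and 21 of 30 intervals lay within 1.5-fold. The called shares of the ribosomal protein, neuronal, skeletal muscle and heart lists were 4.48%, 8.51%, 12.2% and 13.3%. Over all tested genes the called share was 4.96%. Of 67 ribosomal protein genes 3 were lower, at a median of 0.02, and 64 had a 95% interval within 1.5-fold. The count of 3 was 9 without BaAQ 3, 1 without Control 1 or BaAQ 2, and 0 without BEZO 2, BEZO 3 or BaAQ 1. Among the 13 genes of the mitochondrial genome edgeR called 0, with 1 higher and 1 lower at an unadjusted p under 0.05. DESeq2 called 1 higher and 1 lower there, edgeR called 1 lower without BEZO 2 or BaAQ 3, and 12 of the 13 intervals lay within 1.5-fold. Of 47 neuronal genes 4 were lower, with a median of -0.08 and 43 intervals within 1.5-fold, and that count was 0 without BEZO 2 or BaAQ 1 and 1 without BEZO 1, BEZO 3 or BaAQ 2. Skeletal muscle genes gave 3 higher and 3 lower of 49, with 1 to 3 higher and 1 to 5 lower when a compound library was left out. Their summed level had a mean of 86225 CPM in BEZO, 91822 CPM in BaAQ and 91618 CPM in Control. Among the lower genes were cav3, at -0.46 ± 0.09 (adjusted p = 0.00230), and pvalb1, at -0.31 ± 0.08 (adjusted p = 0.0163). The call of pvalb1 was lost without BEZO 2, BEZO 3, BaAQ 1 or BaAQ 2. The skeletal actin ACTA1 (ENSDARG00000036371) was higher by 0.67 ± 0.07 (adjusted p = 1.67e-07). It had 657, 653 and 609.6 CPM in BEZO, 444, 387 and 388 CPM in BaAQ and 536, 513 and 577 CPM in Control. Actin genes are near copies too. Heart genes gave 4 higher of 30, a count of 2 without BEZO 1, BEZO 3, BaAQ 2 or BaAQ 3, and the cardiac myosin gene myh6, higher by 0.42 ± 0.09 (adjusted p = 0.00744), kept its call in each of these.

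The remaining lists had these counts, beside 2.32% higher and 2.64% lower over all tested genes. Replication and mitosis genes gave 4 higher of 39, and 0 to 2 when any library other than BEZO 3 was left out. Retinoid genes gave 5 higher and 1 lower of 34. Higher genes fell to 1 to 3 without BEZO 1, 2 or 3 or BaAQ 1 or 3. Lower genes fell to 0 without BEZO 1, 2 or 3 or BaAQ 2. The 1 lower gene, RPE65 (ENSDARG00000007480), also lost its call without BaAQ 1 (adjusted p = 0.0831). RBP2 (ENSDARG00000093774), a cellular retinol-binding protein, was higher by 0.42 ± 0.08 (adjusted p = 0.00308) and below Control in both compounds, at -0.64 in BEZO and -1.05 in BaAQ on the log2 scale. Circadian genes gave 4 lower of 29 and 2 lower without any 1 of the 6 compound libraries. Of these rorab, a nuclear receptor of the clock, was lower by -0.54 ± 0.08 (adjusted p = 3.52e-05), and nfil3-6, of the clock-linked NFIL3 family, by -0.84 ± 0.15 (adjusted p = 5.19e-04). Endothelial genes gave 3 higher and 3 lower of 27, pancreas and gut genes 3 higher and 1 lower of 10, and glia and neural progenitor genes 2 higher of 21. Each of these counts dropped to 0 without at least 1 library: endothelial higher genes without BEZO 3 or BaAQ 2 and lower genes without BEZO 2, pancreas higher genes without BEZO 1, and glial genes without BEZO 2, BEZO 3, BaAQ 1 or BaAQ 2. The lower pancreas gene was lost without BEZO 1 or 3 or any BaAQ library. Cholesterol synthesis genes gave 2 higher of 20, glycolysis and hypoxia genes 2 higher and 2 lower of 41, and immediate early genes 1 lower of 30. These counts ran from 0 to 3 with a library left out. The called shares were 10%, 9.76% and 3.33%, against 4.96% over all tested genes. Lipid metabolism genes gave 2 higher and 1 lower of 38, a called share of 7.89%. The 2 became 1 without BEZO 2 or BEZO 3, and the 1 lower was lost without BEZO 1, BEZO 3 or any BaAQ library. This lower gene is FABP2, the same gene as the 1 lower gene of the pancreas and gut list. ANGPTL4, an inhibitor of lipoprotein lipase, was higher by 0.52 ± 0.09 (adjusted p = 3.52e-04) at 46.0, 46.9 and 56.5 CPM in BEZO, 36.6, 34.5 and 34.0 CPM in BaAQ and 37.6, 36.3 and 39.7 CPM in Control.

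**Figure D5:**
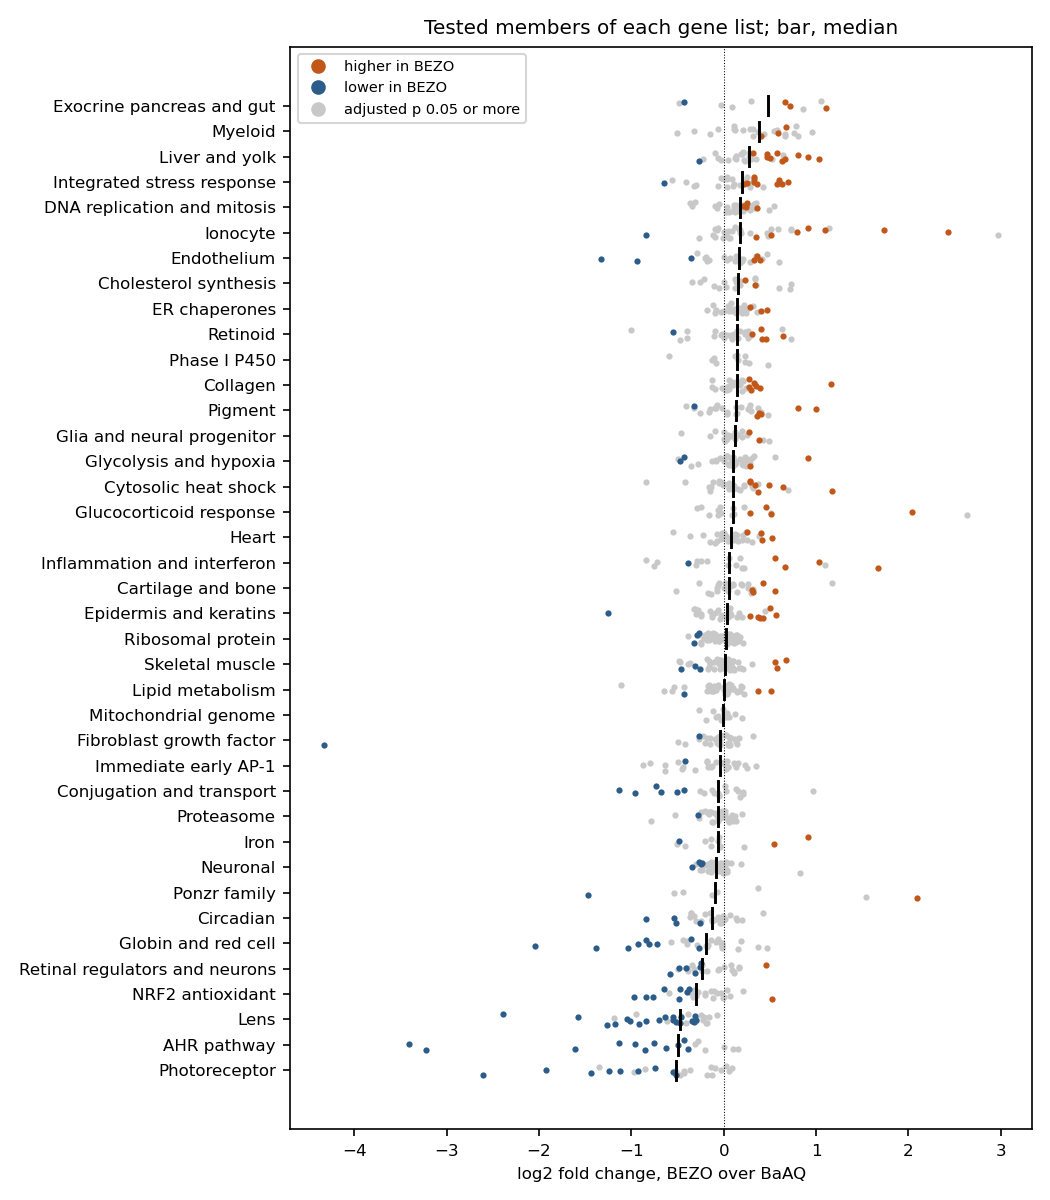
Log2 fold change of BEZO over BaAQ (horizontal axis) for each tested member of the 39 gene lists, ordered by list median, with members past the threshold coloured and a black bar at the median. The receptor, lens and photoreceptor lists lie lowest, with medians of -0.50, -0.47 and -0.52, and the liver and yolk list holds 10 higher members at a median of 0.28.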

How the data were processed

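Raw read counts per Ensembl gene in 9 libraries were deposited by the authors. Per the submitters' processing notes, CASAVA 1.8, FastQC, TopHat2, HTSeq, edgeR and the build Zv9 were used, with no options given. Whether reads were counted by strand is not given in the sources used here, so overlapping genes on opposite strands cannot be told apart. Symbols came by identifier from reference gene tables, for 20769 of 32434 genes. Of 1389 listed symbols, 1145 were matched.

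A robust edgeR 4.0.16 quasi-likelihood model of 3 group means, with no covariate, was applied to all 9 libraries in R 4.3.3 after filterByExpr and TMM scaling. BEZO minus BaAQ was tested two-sided with Benjamini-Hochberg adjustment over 18860 genes. The Control libraries entered the estimate of the spread and not the contrast, and comparisons with Control share those 3 libraries. Residual degrees of freedom were 6, and the common biological coefficient of variation was 7.23%. Intervals are 95% intervals of single genes, not adjusted. A level of 3 reads was taken as the floor, which covers counting error only. In simulated data of 18860 genes for the same comparison, 66 genes were changed 1.5-fold, 67 were changed 2-fold and 66 were changed 4-fold. Of these 57.6%, 80.6% and 97.0% were recovered, and 5.45% of calls were unchanged genes. The simulation thus held fewer changed genes than the 936 called in the data.

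The members and the 39 gene lists were chosen with earlier results of these data known, and lists are described by counts and medians only. Named genes were drawn from the 15 largest changes each way with at least 1 CPM and groups apart, up to 4 members per list with the smallest p, a set of receptor, antioxidant and related genes whatever their p, and 2 genes without a symbol each way. CRYAA, CRYBB1 and UGT1A1 lie outside this rule and were named after their values were seen. Alternatives were other size factors, filters, tests, thresholds, depths, a replicate block and each library left out. DESeq2 1.42.0 was the other tool. Figures used Python 3.11.15 and matplotlib 3.10.9.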

Additional observations from a re-analysis of the deposited data

How the results depend on the processing

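Against 438 higher and 498 lower genes, both counts stayed within 1.5 times with other size factors, a stricter filter, the 6 compound libraries only, thinning to the smallest total, the likelihood ratio test, DESeq2 and a fit without robust variances, which was added after seeing the data. With no filter on low counts 667 genes were higher. At an adjusted p under 0.01, 181 were higher and 232 lower, and in a test against a 1.5-fold change 16 were higher and 59 lower. Leaving out each library in turn gave 248 to 410 higher and 288 to 486 lower genes, the fewest without BEZO 2. Of 155 named genes past the threshold, 88 passed whichever of the 9 libraries was left out and 67 did not. The sign turned for foxf2a, to 0.0030 with no filter and to 0.042 to 0.082 without BEZO 2, BaAQ 1 or BaAQ 2, within a range of -0.10 to 0.082 over the libraries left out. It turned for PRDX1, to -0.055 and -0.022 without BEZO 2 and BaAQ 2, within a range of -0.055 to 0.10. Neither gene passed in any of these, and the cause was not tested. Same-numbered libraries did not deviate together more than others did. Their correlations of deviations ran from -0.036 to 0.029, against -0.052 to 0.049 for differently numbered pairs. The labels do not tie vials to spawning days, so a pairing by day was not tested. With the replicate block, 414 genes were higher, 481 were lower, foxf2a was at 0.0036, and the calls of foxq1b and fgfbp3 were lost (adjusted p 0.0518 and 0.0509). Low counts limit genes such as fgf7 and ahrrb, where BEZO held 2 to 4 reads a library. Both were tested only because of their reads in BaAQ.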
